A study of Mus musculus with 6 samples.

Results

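The genes described here are 45 genes of the cell cycle and of mitosis, read in 3 subsets of endothelial cells (ECs) of the mouse thymus. They were chosen by name, as genes that dividing cells use to copy and to separate their chromosomes, and each was matched to 1 of the 24457 gene rows on chromosomes by its symbol. Of the 45 genes, 39 had a level of 1 or more in 2 or more libraries, in FPKM (the fragments of a gene, scaled for transcript length and for library depth), and were tested together with all other genes that passed, 11717 in total. Cdc6, Ccne1, Ccne2, Bub1, Ttk and Hmmr did not pass, and only their levels are given.

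The study sequenced RNA of thymic ECs to compare vessels that differ in 2 surface proteins, Ly6C and P-selectin (Selp). All cells came from the thymus of wildtype female C57BL/6 mice of 4 to 6 weeks, with no treatment, and were sorted as CD31+CD45-EpCAM- cells. Type I ECs were Ly6C+Selp-, type II ECs were Ly6C+Selp+, and type III ECs were Ly6C-Selp+, the subset that the study called thymic portal ECs. Each subset had 2 libraries, replicates 1 and 2, with a sort purity of at least 90% per the labels. Since no source used here says whether the 2 libraries came from separate mice or sorts, the p-values measure the spread between these libraries only. The sort was also by marker gate and not by DNA content, so a subset is a mixture of cells at any stage of the cycle, and fewer dividing cells cannot be told apart from less of these RNAs per cell.

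A cell that enters division first builds the proteins of the replication fork under the E2F transcription factors, which are held back in resting cells by the retinoblastoma family. Later, in G2 and mitosis, a second wave of genes makes cyclin B, the spindle, the checkpoint that holds chromosomes until they are attached, and the anaphase promoting complex that then destroys the cyclins. ECs of grown vessels are mostly at rest, while the thymocytes around them include many dividing cells.

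The 6 libraries held between 1452480 and 2423170 fragments, as read back from the deposited confidence intervals, and 3 fragments corresponded to a median FPKM of 0.324 to 0.553. The summed FPKM ran from 221458 to 300932, since the deposited values were not scaled between libraries. The endothelial identity was clear: the FPKM of Pecam1, which encodes CD31, was between 495.9 and 866.6, and that of Cdh5, which encodes VE-cadherin, between 413.8 and 632.3. Markers of thymocytes were also present in every library, and their differences between the subsets are given with those of the 45 genes.

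All but a few of the 45 genes were expressed at low levels. The median of their mean FPKM over the 6 libraries was 1.90, against 6.26 over all tested genes, 28 of the 45 had a mean under 3 and 6 had a mean under 1. Only Pcna and Mcm3 had a mean of at least 10. Pcna, the sliding clamp of the DNA polymerases, which also serves DNA repair, stood at 78.1 and 58.0 FPKM in type I ECs, at 47.7 and 49.7 in type II ECs and at 70.4 and 48.1 in type III ECs. It made up 29.5% of the summed FPKM of the 45 genes, so that sums are given with and without it. Mcm3, Mcm6 and Mcm4, parts of the ring that unwinds DNA at the fork, followed with means of 12.9, 8.67 and 8.20 FPKM. Mki67, which encodes the Ki-67 antigen used to mark dividing cells, had a mean of 6.00 FPKM, near the median of all tested genes. The least expressed genes were Ccne2, Ttk and Cdc6, with means of 0.121, 0.149 and 0.258 FPKM.

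**Figure D1:**
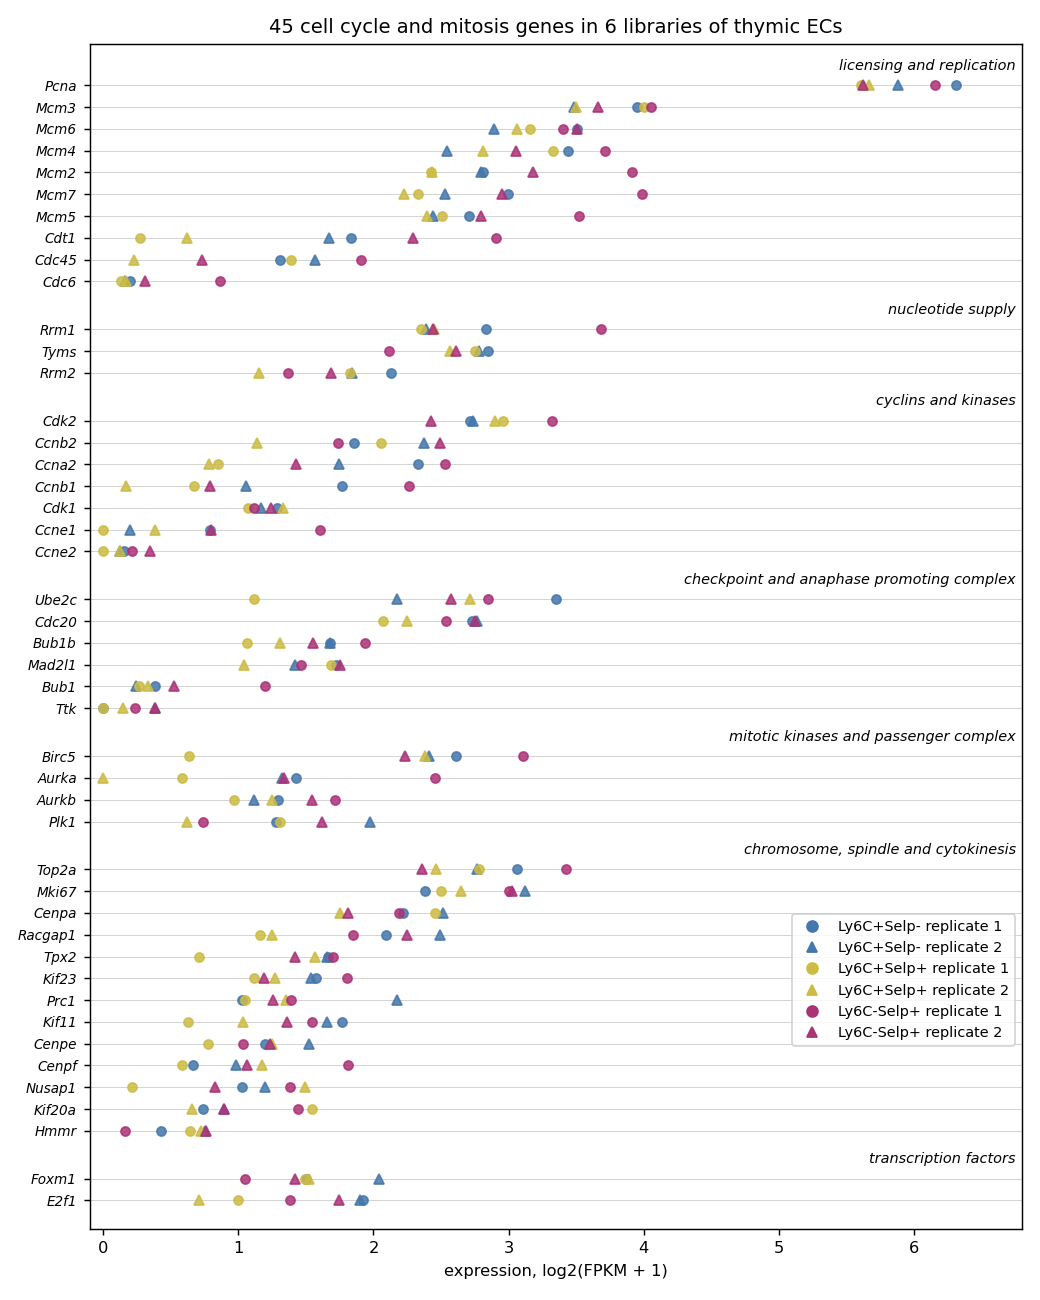
Expression of each of the 45 genes, as log2(FPKM + 1), in each of the 6 libraries, ordered by role and then by mean. Circles are replicate 1 and triangles replicate 2, with 1 colour per subset. Pcna lies apart at the right, the circles of the type III ECs lie at the right for 22 of the 45 genes, and the circles and triangles of type II ECs lie at the left for 20 and 13.

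The summed FPKM of the 45 genes was lowest in type II ECs. It was 232.1 and 194.0 in the type I libraries, 157.2 and 153.7 in the type II libraries, and 270.0 and 185.7 in the type III libraries. Without Pcna the sums were 154.0 and 136.0, 109.6 and 104.0, and 199.6 and 137.6 in the same order. Both type II libraries lay below the other 4, while type I and type III ECs overlapped. As a share of all FPKM in the library, the genes made up 0.0775% and 0.0876% in type I ECs, 0.0602% and 0.0671% in type II ECs, and 0.0897% and 0.0682% in type III ECs, which keeps type II ECs lowest but leaves replicate 2 of type III ECs close to replicate 2 of type II ECs. Replicate 1 of type II ECs held the lowest level of 20 of the 45 genes and replicate 2 that of 13 genes. The highest level was in replicate 1 of type III ECs for 22 genes. Replicate 1 of type II ECs and replicate 1 of type III ECs held the fewest fragments, 1452480 and 1499270. The other libraries held 2017260 to 2423170. Counting error is therefore largest in the libraries with most of these extremes, and 11 of the 45 genes had 3 fragments or fewer in replicate 1 of type II ECs.

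None of the 39 genes tested passed an adjusted p of 0.05 in any of the 3 comparisons between subsets (limma, Benjamini-Hochberg adjustment over the 11717 genes). Over all tested genes, 4.14% passed between type III and type I ECs, 0.393% between type II and type I ECs, and 0.222% between type III and type II ECs. At an unadjusted p under 0.05 there was 1 of the 39 genes, Cdt1, between type III and type I ECs, and there were 6 genes in each of the other comparisons, against 14.1% of all tested genes between type III and type I ECs, 7.48% between type II and type I ECs and 9.99% between type III and type II ECs. For a typical gene of the 39 the 95% confidence interval, before any adjustment, reached 0.862 on either side of the log2 fold change. With 2 libraries per subset, a call after adjustment took a larger difference than that. Even the log2 fold change of 2.15 for Cdt1 between type III and type II ECs did not pass (adjusted p = 0.0718, limma). The lack of calls therefore does not exclude differences of such a size. An exact permutation test of 2 libraries against 2 cannot give a p below 0.33.

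Between type II and type I ECs, the median log2 fold change of the 39 genes on the log2(FPKM + 1) scale was -0.37, against -0.06 over all tested genes, and 34 of the 39 were lower in type II ECs. Both type II libraries lay below both type I libraries for 17 of the 45 genes, all of which were tested, and the same held for 20.6% of all tested genes. The opposite, both type II libraries above both type I libraries, was seen for Cdk2 alone, against 13% of all tested genes. Within replicate 1 the median difference was -0.35 and within replicate 2 it was -0.31. Over 20 markers of thymocytes tested the median was -0.24, but it was -0.66 within replicate 1 and 0.14 within replicate 2.

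Between type III and type II ECs the median log2 fold change was 0.44, against 0.14 over all tested genes, and 34 of the 39 genes were higher in type III ECs. Scaling the libraries to a common median lowered the median of all genes by 0.128 in this comparison and that of the 39 genes to 0.31. Both type III libraries exceeded both type II libraries for 20 of the 45 genes, 15 of them among the 39 tested, against 27.7% of all tested genes, and lay below them for Foxm1 alone, against 13.3%. The median difference was 0.55 within replicate 1 and 0.25 within replicate 2, and it was 0.34 when replicate 1 of the type III ECs was left out. The thymocyte markers were also higher in type III ECs, with a median of 1.23, and of 1.39 and 1.07 within the replicates.

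Between type III and type I ECs the 45 genes had no common direction. The median log2 fold change was -0.005, against 0.08 over all tested genes, with 19 genes higher and 20 lower. Both type III libraries exceeded both type I libraries for 9 of the 45 genes, namely Mcm2, Mcm5, Cdc6, Cdt1, Ccne1, Ccne2 (at most 1.5 fragments in any library), Bub1, Aurkb and Cenpf, of which 5 were tested, against 20.7% of all tested genes. They lay below for 6, namely Rrm2, Tyms, Cenpa, Kif11, Foxm1 and E2f1, against 17.1%. The median was 0.23 within replicate 1 and -0.15 within replicate 2. The thymocyte markers, in contrast, had a median of 0.92, with all 20 higher in type III ECs. These counts of genes that do not overlap come from pairs of libraries, and each pair of comparisons shares a subset, so the 3 comparisons are not independent of one another.

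**Figure D2:**
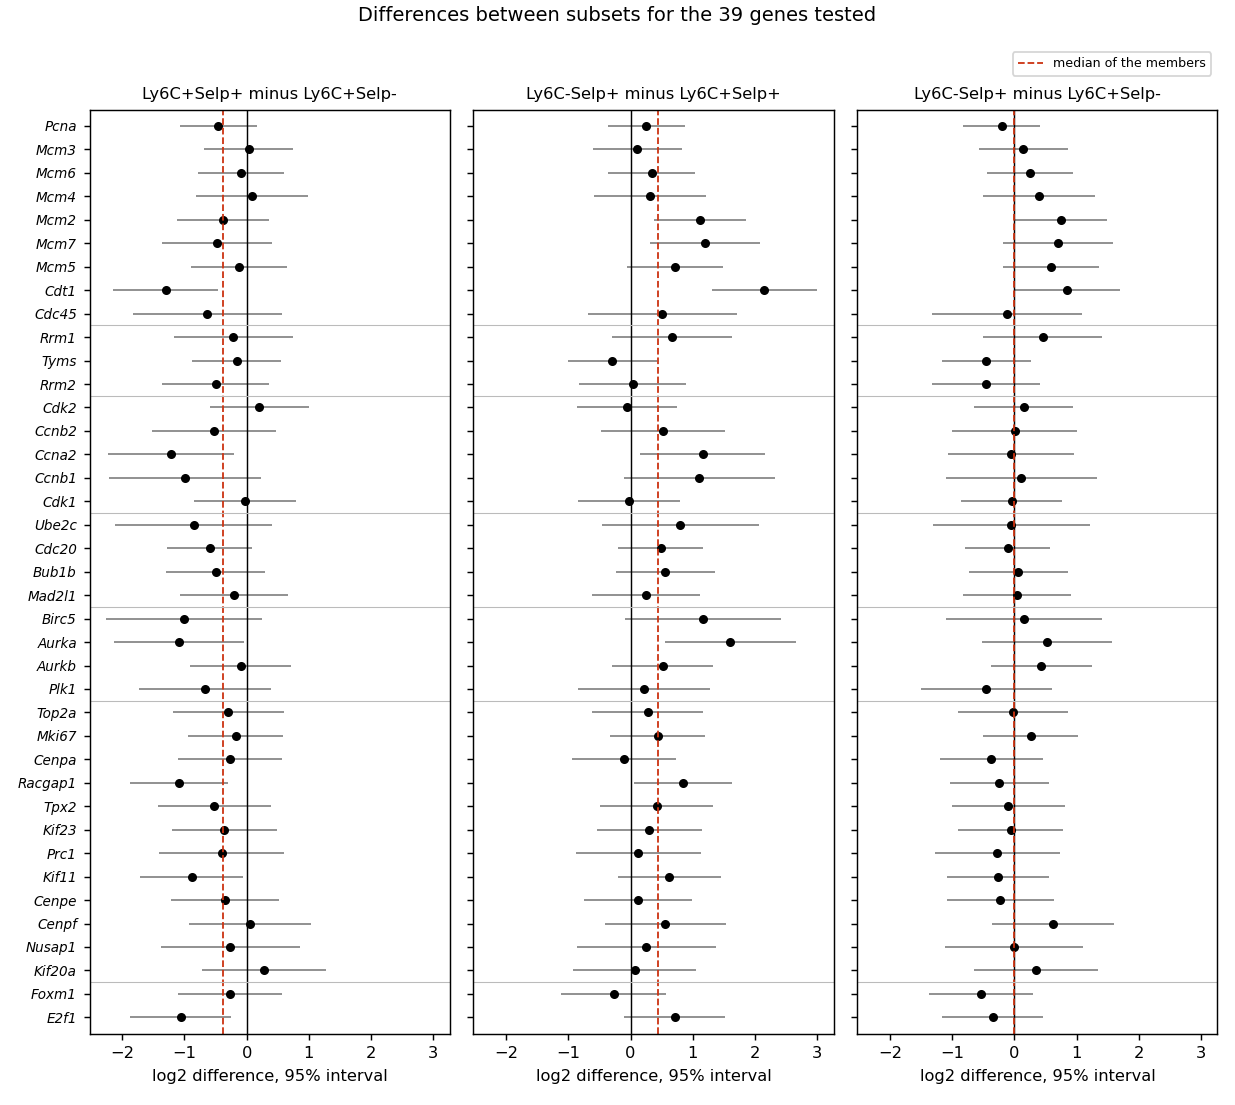
Difference of the mean log2(FPKM + 1) between subsets for the 39 genes tested, with the 95% confidence interval of limma, in the same order of roles. The dashed line is the median of the 39 genes, at -0.37, 0.44 and -0.005 from left to right. Most points lie left of 0 in the first panel and right of 0 in the second, and most intervals include 0.

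For 11 of the 45 genes both type II libraries lay below the 4 libraries of the other subsets, namely Mcm2, Mcm7, Cdt1, Ccna2, Ccnb1, Bub1b, Cdc20, Aurka, Kif11, Racgap1 and E2f1. These were 28.2% of the 39 genes tested, against 8.19% of all tested genes. No gene of the 45 had both type II libraries above the other 4. The 11 genes come from every role described below except the supply of nucleotides. As they were singled out by their levels, the levels are a description.

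**Figure D3:**
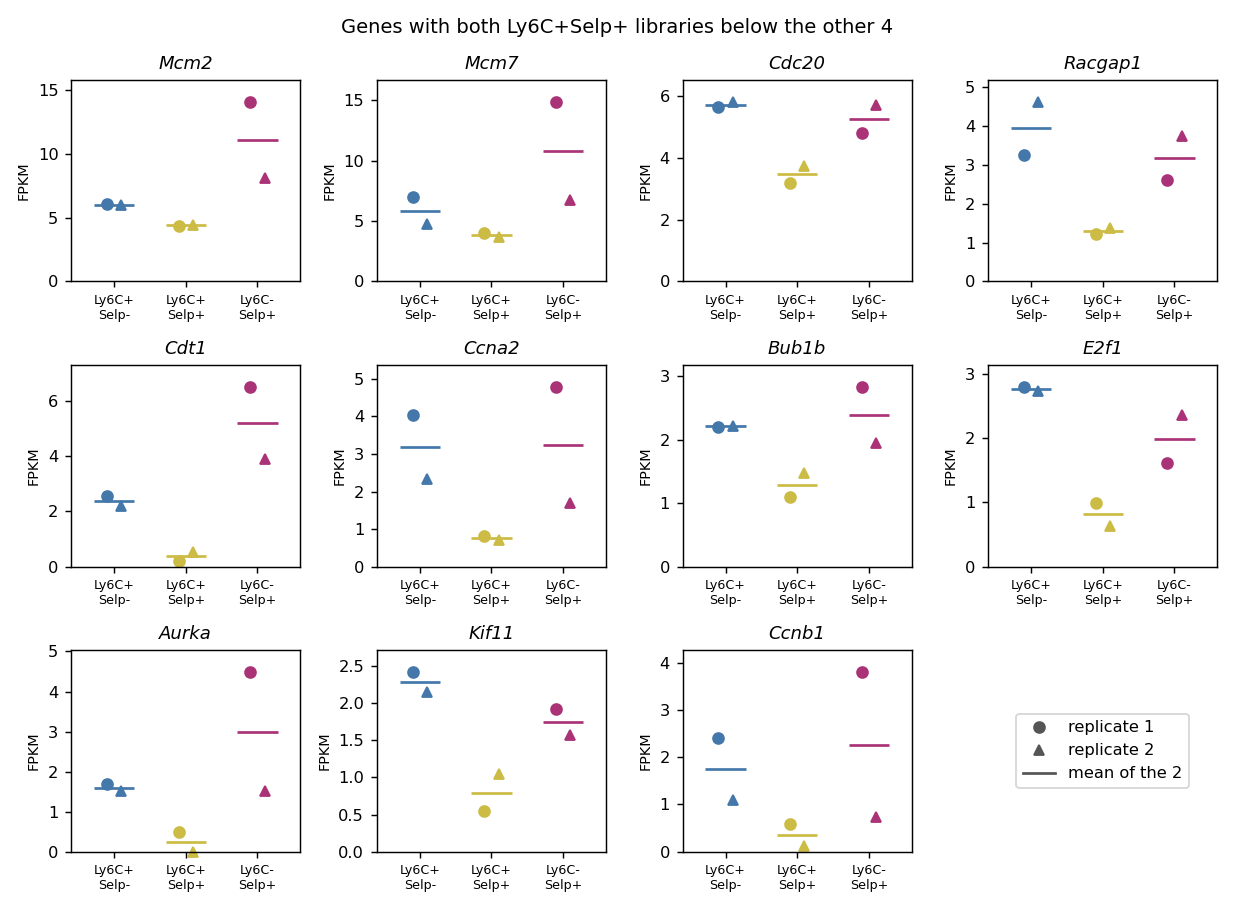
FPKM of the 11 genes in each library, with circles for replicate 1, triangles for replicate 2 and a line at the mean of the 2 libraries. The type II symbols lie lowest in every panel. Replicate 1 of the type III ECs lies far above replicate 2 for Mcm2, Mcm7, Ccna2, Ccnb1 and Aurka, and below it for Cdc20, Racgap1 and E2f1.

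Among the licensing factors, which load the helicase on DNA before S phase, Cdt1 (mm9 chr8:125091915-125097030) showed the largest difference of the 39 genes. Its FPKM was 2.56 and 2.18 in type I ECs, 0.212 and 0.541 in type II ECs and 6.50 and 3.90 in type III ECs. The 3 subsets did not overlap, with type II ECs lowest and type III ECs highest. About 1.0 and 4.0 fragments stood behind the type II values, and 29.0 and 30.0 behind those of type III ECs. Between type III and type II ECs the log2 fold change was 2.15 (SE 0.375, adjusted p = 0.0718, limma), and between type II and type I ECs it was -1.30 (SE 0.375, adjusted p = 0.300). The first passed the threshold with the replicate number as a block and under both rescalings of the libraries, and its adjusted p ran from 0.0268 to 0.477 over 12 alternatives.

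The helicase genes followed Cdt1 in part. Mcm2 (mm9 chr6:88833468-88848774) stood at 6.03 and 5.96 FPKM in type I ECs, 4.37 and 4.41 in type II ECs and 14.0 and 8.08 in type III ECs, again without overlap. Mcm7 (mm9 chr5:138605817-138613090), whose span holds the microRNA genes Mir106b, Mir25 and Mir93, stood at 6.97 and 4.77, 4.03 and 3.68, and 14.8 and 6.72 FPKM, where type I and type III ECs overlapped. The log2 fold change between type III and type II ECs was 1.12 (SE 0.328, adjusted p = 0.275) for Mcm2 and 1.19 (SE 0.39, adjusted p = 0.347) for Mcm7, and that of Mcm7 was 0.67 without replicate 1 of type III ECs. Mcm3 showed no such order, at 14.5 and 10.2, 15.0 and 10.3, and 15.6 and 11.7 FPKM, and each replicate 1 stood above each replicate 2. Mcm5 was at 5.54 and 4.44, 4.70 and 4.26, and 10.5 and 5.94 FPKM. Over the 9 licensing and replication genes tested, 7 were higher in type III than in type I ECs (median log2 fold change 0.39), and all 9 were higher in type III than in type II ECs (median 0.51). Both medians depended on single libraries. The first was 0.0124 without replicate 2 of type I ECs, 0.187 without replicate 1 of type III ECs, and 0.717 or 0.718 without the other library of either subset. The second was 0.292 without replicate 2 of type II ECs, 0.343 without replicate 1 of type III ECs and 1.07 without replicate 2 of type III ECs. Cdc45, which joins the helicase ring in the active helicase, was the noisiest of them, at 1.48 and 1.97, 1.62 and 0.172, and 2.76 and 0.661 FPKM. Cdc6, the partner of Cdt1 in loading the ring, did not reach 1 FPKM in any library and was highest in replicate 1 of type III ECs at 0.821.

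The 3 genes that supply deoxynucleotides did not move together. Rrm1, the large subunit of ribonucleotide reductase, was between 4.09 and 6.12 FPKM in 5 libraries and at 11.8 in replicate 1 of type III ECs. Its small subunit Rrm2 stood at 3.38 and 2.58 FPKM in type I ECs, 2.56 and 1.22 in type II ECs and 1.58 and 2.22 in type III ECs. Tyms, which makes thymidylate, stood at 6.20 and 5.89, 5.72 and 4.93, and 3.34 and 5.10 FPKM. Rrm2 and Tyms thus had both type III libraries below both type I libraries, with log2 fold changes of -0.46 (adjusted p = 0.708) and -0.45 (adjusted p = 0.638), while Rrm1 was at 0.45 (adjusted p = 0.756). Without replicate 1 of the type III ECs the values were -0.30 for Rrm2, -0.21 for Tyms and -0.17 for Rrm1, which thus changed sign.

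Cyclin A2 and cyclin B1, which drive S phase and mitosis, were low in type II ECs. Ccna2 (mm9 chr3:36463787-36470918), which overlaps Exosc9, stood at 4.03 and 2.35 FPKM in type I ECs, 0.806 and 0.721 in type II ECs and 4.78 and 1.68 in type III ECs. The log2 fold change of Ccna2 was -1.22 between type II and type I ECs (SE 0.445, adjusted p = 0.519) and 1.16 between type III and type II ECs (SE 0.445, adjusted p = 0.434), the latter falling to 0.61 without replicate 1 of type III ECs. Ccnb1 stood at 2.41 and 1.09, 0.598 and 0.127, and 3.80 and 0.734 FPKM, with about 3.0 and 1.0 fragments in type II ECs. For both cyclins the FPKM of the 2 type III libraries differed by more than those of either other subset. Ccnb2, the other B-type cyclin, showed no such order, at 2.62 and 4.20, 3.16 and 1.21, and 2.34 and 4.63 FPKM. Of their kinase partners, Cdk1 stood between 1.11 and 1.52 FPKM in all 6 libraries, and its log2 fold changes were -0.05, -0.02 and -0.02 in the 3 comparisons, with a 95% confidence interval of -0.84 to 0.79 between type III and type II ECs. Cdk2 was at 5.55 and 5.67, 6.76 and 6.47, and 8.98 and 4.38 FPKM, so that its highest and lowest levels were both in type III ECs. Ccne1 and Ccne2, the E cyclins that start S phase, were listed at 0 in replicate 1 of type II ECs and were highest in type III ECs, at 2.04 and 0.737 and at 0.158 and 0.275 FPKM. At most about 1.5 fragments stood behind any value of Ccne2, so its order between the subsets is uncertain.

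In the group of the spindle checkpoint and the anaphase promoting complex, all 4 genes tested were lower in type II than in type I ECs, with a median log2 fold change of -0.54. Cdc20 (mm9 chr4:118105506-118109948), the activator of that complex, which overlaps Elovl1, had replicates close to each other at 5.64 and 5.81 FPKM in type I ECs, 3.20 and 3.74 in type II ECs and 4.80 and 5.72 in type III ECs. Its log2 fold change between type II and type I ECs was -0.59 (SE 0.302, adjusted p = 0.738). Ube2c, the ubiquitin-conjugating enzyme of the complex, varied more between replicates than between subsets, at 9.20 and 3.51, 1.17 and 5.56, and 6.18 and 4.97 FPKM. Bub1b, a checkpoint kinase, stood at 2.20 and 2.21, 1.09 and 1.47, and 2.82 and 1.94 FPKM. Mad2l1, which binds Cdc20 at the checkpoint, overlapped between all subsets, from 1.06 to 2.38 FPKM. Bub1 and Ttk reached at most 1.29 and 0.306 FPKM in any library.

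Of the mitotic kinases, Aurka (mm9 chr2:172181690-172196070), which matures the spindle poles, was at 1.69 and 1.51 FPKM in type I ECs, 0.498 and 0 in type II ECs and 4.48 and 1.53 in type III ECs. Its log2 fold change between type III and type II ECs was 1.60 (SE 0.462, adjusted p = 0.259) and 1.05 without replicate 1 of type III ECs, and only about 1.0 fragment was read back in the 2 type II libraries together. Aurkb, the kinase of the chromosomal passenger complex, stood at 1.45 and 1.16, 0.961 and 1.38, and 2.29 and 1.92 FPKM, with type III ECs above the other 4 libraries. Birc5, its partner survivin, ranged from 0.553 to 7.60 FPKM, both ends being replicate 1 libraries, and the 2 type II libraries were at 0.553 and 4.21. Plk1, the polo kinase, was at 1.43 and 2.93, 1.47 and 0.538, and 0.668 and 2.07 FPKM, with no separation of the subsets.

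The largest group, 13 genes of chromosome structure, spindle and cytokinesis, included genes with opposite orders. Racgap1 (mm9 chr15:99450928-99482087), part of the complex that builds the cleavage furrow, stood at 3.26 and 4.62 FPKM in type I ECs, 1.23 and 1.38 in type II ECs and 2.61 and 3.75 in type III ECs. Its log2 fold change was -1.09 between type II and type I ECs (SE 0.349, adjusted p = 0.383) and 0.85 between type III and type II ECs (SE 0.349, adjusted p = 0.466). Kif11, the motor that separates the spindle poles, stood at 2.41 and 2.15, 0.545 and 1.05, and 1.92 and 1.57 FPKM. In both genes the type II libraries lay below the other 4 without overlap. Mki67 was at 4.22 and 7.69, 4.67 and 5.27, and 7.01 and 7.12 FPKM, with its highest value in replicate 2 of type I ECs. Top2a, which untangles sister chromosomes, was at 7.36 and 5.80, 5.85 and 4.50, and 9.74 and 4.12 FPKM, so that the highest and the lowest library were both of type III ECs. Cenpa, the histone H3 variant of centromeres, had type III below type I ECs, at 3.55 and 2.51 against 3.65 and 4.73 FPKM. Of the 12 genes tested 3 were higher and 9 lower in type III than in type I ECs, with a median log2 fold change of -0.08, which ran from -0.261 without replicate 1 to 0.142 without replicate 2 of type III ECs. The other 7 genes of the group tested, Tpx2, Kif23, Prc1, Cenpe, Cenpf, Nusap1 and Kif20a, had means between 1.10 and 1.81 FPKM and overlapped between type II and type III ECs, and Hmmr had a mean of 0.511.

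Both transcription factors of the list were lower in type II and in type III than in type I ECs on average. E2f1 (mm9 chr2:154385136-154395628), which switches on the genes of S phase, stood at 2.79 and 2.73 FPKM in type I ECs, 0.995 and 0.636 in type II ECs and 1.61 and 2.36 in type III ECs, without overlap between the subsets. Its log2 fold change between type II and type I ECs was -1.06 (SE 0.358, adjusted p = 0.440). Foxm1, which drives the genes of G2 and mitosis, stood at 1.83 and 3.12, 1.81 and 1.87, and 1.07 and 1.68 FPKM. E2f1 was highest in type I ECs, while Cdt1, Mcm2 and Mcm5 were highest in type III ECs.

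Some sequence elements, which played no part in the choice of the genes, were more frequent in their promoters than in those of other genes. Promoter windows of 300 bases, from 250 bases before the start of the gene to 50 after it, were taken from RefSeq (GRCm38.p6) for 38 of the 45 genes, 40 windows in all. The CCAAT box, which binds NF-Y, was searched as CCAAT on both strands and was in 80% of the 40 windows, against 36.9% of the 11298 windows of genes tested here and 37.4% of all 32851 windows. The core of the cell cycle genes homology region (CHR), which binds the DREAM and MuvB complexes, was searched as TTTGAA on both strands and was in 50% of the windows, against 11.5% and 17.9%. Both motifs together were also in 50%, against 4.39% and 6.95%. Of the 25 CHR matches in the windows of the 45 genes 18 (72%) lay within 50 bases of the start, against 22.4% of the matches in windows of genes tested here. An E2F site, searched as TTTCCCGC, TTTCGCGC, TTTGCCGC or TTTGGCGC on both strands, was in 20%, against 3.81% and 2.26%. None of the motifs contains another. For the 11 genes with type II ECs lowest, 11 windows of 10 genes matched, with the CCAAT box in 9, the CHR in 6 and an E2F site in 2. These shares were near those of the 45 genes as a whole. A match to these letters is a description and does not show that a factor binds there.

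The windows of Cdc20, Aurka, Racgap1 and Cdt1 are shown because they belong to genes with type II ECs lowest and show a CCAAT box with a CHR, in the first 3, and an E2F site alone, in Cdt1. Other windows of these genes differed, with the CCAAT box alone in Ccnb1 and with and without E2F sites in the 2 windows of Mcm7. They are written 5′ to 3′ on the strand of the gene, with the matches in capitals (the CCAAT box on either strand, the CHR, and the E2F site in Cdt1), and lie on GRCm38.p6 at chr4:118437294-118437593 (minus strand), chr2:172370521-172370820 (minus strand), chr15:99651607-99651906 (minus strand) and chr8:122567765-122568064 (plus strand).
Cdc20: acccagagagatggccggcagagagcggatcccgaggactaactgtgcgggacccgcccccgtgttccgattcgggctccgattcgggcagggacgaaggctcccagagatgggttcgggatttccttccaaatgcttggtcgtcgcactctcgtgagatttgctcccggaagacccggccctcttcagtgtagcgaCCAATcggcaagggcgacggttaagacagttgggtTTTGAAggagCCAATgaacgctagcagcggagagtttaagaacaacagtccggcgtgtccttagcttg
Aurka: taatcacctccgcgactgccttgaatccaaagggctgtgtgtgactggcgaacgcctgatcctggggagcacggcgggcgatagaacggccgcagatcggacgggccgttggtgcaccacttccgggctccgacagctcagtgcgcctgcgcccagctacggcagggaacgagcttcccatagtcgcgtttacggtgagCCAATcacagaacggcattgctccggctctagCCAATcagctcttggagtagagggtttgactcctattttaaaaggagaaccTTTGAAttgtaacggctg
Racgap1: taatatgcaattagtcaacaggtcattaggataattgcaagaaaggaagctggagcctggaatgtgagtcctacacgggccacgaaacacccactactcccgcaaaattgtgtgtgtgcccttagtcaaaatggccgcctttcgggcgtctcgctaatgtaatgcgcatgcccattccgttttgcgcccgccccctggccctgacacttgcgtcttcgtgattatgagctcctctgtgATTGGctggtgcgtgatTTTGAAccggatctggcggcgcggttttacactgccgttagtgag
Cdt1: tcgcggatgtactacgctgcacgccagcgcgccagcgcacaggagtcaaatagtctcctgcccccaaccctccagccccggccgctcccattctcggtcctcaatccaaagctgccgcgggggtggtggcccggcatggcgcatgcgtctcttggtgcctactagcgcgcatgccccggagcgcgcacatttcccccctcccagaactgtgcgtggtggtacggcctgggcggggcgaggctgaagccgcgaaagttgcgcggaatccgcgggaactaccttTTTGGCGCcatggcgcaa
In Cdc20 the CHR lies between 2 CCAAT boxes, in Aurka 2 CCAAT boxes precede it, and in Racgap1 a single inverted box does. Cdt1 has neither element in this window, and its E2F site lies near the end. The E2f1 window held none of the 3 motifs.

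Cell cycle genes outside the 45 were read from lists of 165 further genes, of which 119 rows were tested, and 1 passed. It passed between type III and type I ECs, where 4.14% of all tested genes passed. Cenpt, which links centromeres to the spindle, was higher in type III than in type I ECs, at 10.3 and 7.93 against 2.24 and 2.61 FPKM, with type II ECs between them at 4.31 and 4.30 (log2 fold change 1.55, SE 0.308, adjusted p = 0.0235). It was called in 8 of 13 alternatives, and its adjusted p ran from 0.00875 to 0.188 over them. It lost the call when any of the type I or type III libraries was left out, with adjusted p from 0.0762 to 0.188 and log2 fold changes from 1.38 to 1.72. The 119 further genes had a median log2 fold change of -0.24 between type II and type I ECs (-0.401 without replicate 2 and -0.156 without replicate 1 of type I ECs), with 86 negative, of 0.23 between type III and type II ECs (0.0929 without replicate 1 of type III ECs), with 78 positive, and of -0.01 between type III and type I ECs. Both type II libraries lay below the other 4 for 21% of the 119 further genes, against 8.19% of all tested genes. Between type II and type I ECs the median was -0.36 over 49 further genes of G2 and mitosis and -0.09 over 37 of S phase, and the difference between these lists was not tested. Without replicate 2 of type I ECs these medians were -0.509 and -0.264, and without replicate 1 they were -0.234 and -0.0816.

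The 12 genes of entry into the cycle had a median mean level of 2.92 FPKM, against 1.90 for the 45. Their most abundant members were Myc and Ccnd1. Ccnd1, the cyclin that brings resting cells into the cycle, was at 52.0 and 49.1 FPKM in type I ECs, 57.9 and 45.6 in type II ECs and 49.7 and 47.4 in type III ECs. Myc, the growth transcription factor, was at 59.7 and 40.3, 68.2 and 61.7, and 57.6 and 58.3 FPKM. Ccnd3, another D-type cyclin, was at 38.2 and 33.1, 23.4 and 23.9, and 34.0 and 28.9 FPKM, with type II ECs lowest (log2 fold change -0.57 against type I ECs, adjusted p = 0.642). None of the 12 genes of entry into the cycle was called in any comparison, against at most 4.14% of all tested genes.

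The inhibitors of the cycle included the highest levels of all cell cycle genes read. Gadd45g, a growth arrest gene, was between 161.0 and 239.2 FPKM in the 6 libraries. Cdkn1a, which encodes the kinase inhibitor p21, was at 168.1 and 138.7 FPKM in type I ECs, 129.1 and 93.4 in type II ECs and 80.5 and 96.6 in type III ECs. Cdkn1c, which encodes p57, was at 21.5 and 14.4, 4.96 and 5.22, and 7.87 and 4.86 FPKM, so that type I ECs stood above both other subsets. Its log2 fold change was -1.37 between type III and type I ECs (SE 0.331, adjusted p = 0.0572, from 0.0117 to 0.246 over 13 alternatives) and -1.61 between type II and type I ECs (adjusted p = 0.109, from 0.0253 to 0.47). Btg2, an antiproliferative gene, was at 167.7 and 94.5, 87.2 and 82.2, and 72.0 and 58.9 FPKM. Cdkn1a, Cdkn1c and Btg2 were therefore highest in type I ECs, and their relation to the levels of the 45 genes was not tested. None of the 21 inhibitor rows tested was called by limma in any comparison, against at most 4.14% of all tested genes. The study itself, with the Cuffdiff software, listed Cdkn1a, Cdkn1c and Btg2 among the genes that differed between type I and type III ECs. The FPKM printed in that list differ from the deposited FPKM used here. Between type III and type I ECs, Btg2 (log2 fold change -0.94, adjusted p = 0.15) passed in 4 of 13 alternatives, with adjusted p from 0.0138 to 0.378, and Cdkn1a (-0.79, adjusted p = 0.164) in 1 of 13, with adjusted p from 0.0302 to 0.719. Rb1, of the retinoblastoma family, was between 3.69 and 9.64 FPKM, and Lin37, of the DREAM complex, between 2.93 and 11.9. The median of the mean FPKM over all tested genes was 6.26.

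Markers of thymocytes shared the direction of the 45 genes between type III and type II ECs but not throughout. The summed FPKM of 22 thymocyte markers was 220.1 and 75.8 in type I ECs, 138.9 and 90.6 in type II ECs and 364.6 and 194.3 in type III ECs. In type III against type II ECs, 19 of the 20 markers tested were higher. Both type III libraries lay above both type II libraries for 17 of the 22, 16 of them tested, and below them for 1. Over all tested genes these shares were 27.7% and 13.3%. None passed the threshold, and the smallest adjusted p was 0.161 (limma). Between type III and type I ECs none passed either, with a smallest adjusted p of 0.138 (limma). The study, however, listed Bcl11b, Lck and Ptprc among the genes that differed between type I and type III ECs, with higher means in type III ECs. Leaving out replicate 1 of type I ECs turned the median of the markers between type II and type I ECs to 0.412. Leaving out replicate 2 of type I ECs lowered the median between type III and type I ECs to 0.194. Of the defining genes, Cd4 was at 13.0 and 2.91, 6.54 and 4.09, and 21.5 and 10.01 FPKM, and Dntt, which adds bases at the joints of antigen receptor genes, at 11.8 and 3.10, 7.22 and 3.55, and 19.3 and 8.72 FPKM. Ptcra was listed at 0 in 3 libraries and Rag2 stayed under 0.5 FPKM in all 6. The part of thymocytes in the levels of the 45 genes was not tested.

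Replicate 2 of type I ECs had the lowest thymocyte sum of the 6 libraries, 75.8, and the third highest sum of the 45 genes, 194.0. Replicate 1 of type III ECs, which had the highest sum of the 45 genes, also had the highest thymocyte sum, 364.6, and the highest sum of 10 myeloid and B cell markers, 916.9, against 110.8 to 467.9 in the other 5 libraries. The highest mean of any gene in this last list was 241.8 FPKM, against a median mean of 3.34 over its 10 genes, so that gene weighs heavily in the sum. Cd74, which is in this list, is also among the genes that the study listed as different between type I and type III ECs.

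Other cell types differed as well. The 7 markers of pericytes and smooth muscle summed to 516.2 and 215.1 FPKM in type I ECs, 452.8 and 311.8 in type II ECs and 102.2 and 156.1 in type III ECs. The 6 fibroblast markers were highest in type II ECs on average, at 427.4 and 260.9 FPKM, against 263.4 and 161.0 in type I and 165.2 and 168.5 in type III ECs. The 10 thymic epithelial markers summed to between 19.1 and 88.0, the 4 lymphatic markers to between 9.85 and 30.1, and the erythroid markers to between 0 and 140.0. The 12 endothelial markers summed to 3357 and 2871, 2782 and 2804, and 3558 and 4259 FPKM. The part of these cells in the levels of the 45 genes was not tested.

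**Figure D4:**
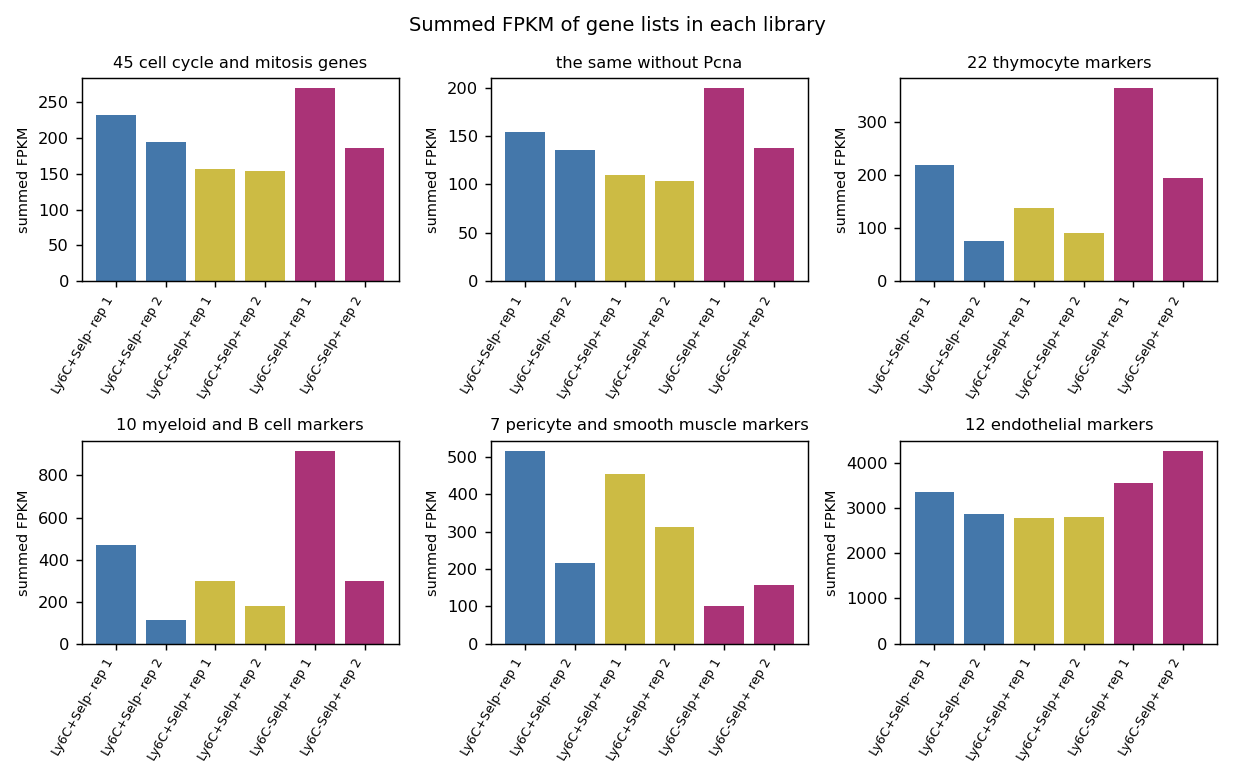
Summed FPKM of the 45 genes, with and without Pcna, and of 4 marker lists, in each of the 6 libraries, with bars coloured by subset and a separate axis from 0 in each panel. The 45 genes are lowest in both type II libraries, at 157.2 and 153.7, while the thymocyte markers are lowest in replicate 2 of type I ECs, at 75.8.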

How the data were processed

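RNA of sorted thymic ECs was prepared with NEBNext Ultra kits and sequenced, with 2 libraries for each of 3 subsets. Per the submitters' processing notes, the authors used CASAVA 1.8, mapped reads to mm9 with TopHat2 2.0.10 and computed expression with Cufflinks 2.1.1, and they deposited the FPKM of each gene in each library with the bounds of its 95% confidence interval. The gene annotation and the strand setting are not given in the sources used here. Values were not scaled between libraries. The fragments behind a value were estimated from the width of its interval, which was taken as counting error only. The 95 rows for spike-ins and reporters were left out.

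The deposited FPKM were transformed to log2(FPKM + 1), so that fold changes of low genes are understated. Limma 3.58.1 in R 4.3.3 was run on 11717 genes that reached 1 FPKM in 2 or more libraries (1 mean per subset, all 6 libraries in 1 fit with a mean trend, 3 residual degrees of freedom). Benjamini-Hochberg adjustment was made over these genes for each comparison, and 0.05 was the threshold. The alternatives were the replicate number as a block, a pseudocount of 0.1, no filter, a mean FPKM of at least 5, median scaling, quantile normalization, only the libraries compared, and each library left out in turn. Limma was also run on simulated data for the comparison of type III with type I ECs. It called 157 of 200 changed genes among 11717, with 8 false calls, and 0 with no change. Recovery was not measured separately for genes of low level or for small differences. It therefore does not give the share of real differences that would be called among the cell cycle genes described here.

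Members and lists were chosen with earlier results of these data known, so no count over a list is independent evidence. Any of the 45 genes could be named. From the other lists, called genes and those with the highest mean were named, besides Pecam1, Cdh5 and some of the defining thymocyte markers. Of the latter, the levels of Cd4, Dntt, Ptcra and Rag2 are given, while those of Cd3e, Cd8a, Cd8b1, Rag1, Lck and Ptprc enter only the sums and counts. Bcl11b, Lck and Ptprc are named from the study's list. Ccnd3, Cdkn1c, Rb1 and Lin37 were chosen after their values were seen. Genes in overlapping spans (Mcm7, Ccna2, Ccne2, Cdc20, Kif20a, Tpx2, Nusap1 and Foxm1) may share reads with their neighbours. Coordinates of genes are those of the files (mm9), and promoter windows are from RefSeq (GRCm38.p6). Promoters of 7 of the 45 genes were not used here.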

Additional observations from a re-analysis of the deposited data

How the results depend on the processing

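The count of the 39 genes past the threshold was 0 in all 3 comparisons under every alternative, except that Cdt1 passed, as 1 gene, between type III and type II ECs with a replicate block (adjusted p = 0.0268), with median scaling (adjusted p = 0.0434) and with quantile normalization (adjusted p = 0.0366). The median log2 fold change between type II and type I ECs was -0.551 with a pseudocount of 0.1, -0.299 with no filter, -0.176 over genes with a mean FPKM of at least 5, -0.334 with median scaling and -0.332 with quantile normalization. Between type III and type II ECs it was 0.72 with a pseudocount of 0.1. With each library left out in turn, the medians ranged from -0.382 to -0.281 between type II and type I ECs, from 0.343 to 0.558 between type III and type II ECs, and from -0.125 to 0.25 between type III and type I ECs, while the counts stayed at 0. The type III to type I median thus has no stable sign. Among the single genes named with a test, Cdkn1c passed in 4 alternatives between type III and type I ECs (the replicate block, a mean FPKM of at least 5, median scaling and quantile normalization) and in 3 between type II and type I ECs (the same without the mean FPKM of at least 5). Btg2 passed between type III and type I ECs with the replicate block, both rescalings and without replicate 2 of type I ECs, and Cdkn1a with quantile normalization. The log2 fold change of Rrm1 between type III and type I ECs was -0.17 without replicate 1 of the type III ECs and 1.072 without replicate 2.

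The labels give each subset replicates 1 and 2 but do not say that a number marks a shared mouse, sort or day, so the numbers were not taken to pair the libraries. The deviations of same-numbered libraries from their subset means correlated at 0.199, 0.306 and 0.180 across 11717 genes. With the replicate block the genes called over the whole table numbered 971 between type III and type I ECs instead of 485, 183 between type II and type I ECs instead of 46, and 229 between type III and type II ECs instead of 26. Depth limits the lowest genes: at 3 fragments the median FPKM was 0.324 to 0.553, and in each library between 3 and 11 of the 45 genes had 3 fragments or fewer.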
